A study of Mus musculus with 16 samples.

Results

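The genotype difference in the angiotensin II-infused mouse aorta was read from 8 of the 16 libraries of the series, 4 from wild-type (WT) and 4 from Vamp8 knockout (KO) mice. All 8 mice were male and had received angiotensin II (AngII) from an osmotic pump under the skin, 1000 ng/kg/min over 5 days. The WT mice were C57BL/6 and the KO mice are labelled Vamp8-/-, and the sources used here do not give the deleted part of the gene or the strain in which the allele was made. Poly-A RNA came from the suprarenal aorta after perfusion and removal of the surrounding tissue, and aortae with bleeding inside the wall or other overt pathology had been left out by the submitters. Each group's 4 libraries are labelled as biological replicates, with nothing further on the animals behind them. The members were the columns of the count table named for these 8 libraries, over all 29695 genes, and the other 8 libraries (the same genotypes under saline) entered the same fit.

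Vamp8 encodes a SNARE, a small membrane-anchored protein of endosomes, lysosomes and secretory granules that pairs with partner SNAREs on another membrane to drive fusion, including the fusion of autophagosomes with lysosomes. Angiotensin II is a vasoconstrictor peptide that acts on vascular smooth muscle, fibroblasts and macrophages. Its infusion in mice is a common model of aortic wall remodelling, in which elastin and collagen deposition, cell proliferation and leukocyte entry are the usual readouts.

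Depth overlapped between the genotypes. Total counts per library ran from 13925508 to 19232357 in the 8 AngII libraries (exact two-sided permutation test p = 0.143, smallest possible p 0.0286), and the share of reads from the mitochondrial genome was 12.6 ± 3.06% in WT and 16.1 ± 6.12% in KO (SD, n = 4, exact permutation p = 0.4). Smooth muscle contractile transcripts, the defining transcripts of the aortic media, summed to 20750 to 30350 CPM (a gene's reads scaled to a common library total) in WT and 11150 to 29530 in KO. KO AngII replicate 4 stood apart: 14 neuronal markers summed to 4936 CPM there and to 289.5 CPM in KO replicate 2, against 53.1 and 69.4 in the other KO AngII libraries and 60.63 to 107.3 in WT. A list of 13 chromaffin and sympathetic markers summed to 4512 and 288.4 CPM in these KO libraries and to 7.416 to 9.825 CPM in WT. Among the saline libraries, KO replicate 1 held Vamp8 at 53.3 CPM, the WT level. The count table also differed by genotype in its make-up: the 2725 genes that carry no symbol are those, and no others, that had 0 reads in every WT library, so a difference in how reads of the 2 genotypes were counted cannot be told apart from genotype.

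Of 15984 genes with enough reads, 324 (2.03%) differed between KO and WT under AngII at an adjusted p under 0.05 by edgeR's quasi-likelihood test, 159 higher (0.995%) and 165 lower (1.03%) in KO. Genes of the extracellular matrix, Fc receptors of myeloid cells and the clock activators Arntl and Npas2 were lower in KO, while clock repressors and output genes, leptin and Gbp2b, an interferon-inducible guanylate-binding protein, were higher. Without KO replicate 4, 77 of the 159 higher and 84 of the 165 lower genes were still called. The count of calls was 169, 100 and 103 without WT AngII replicate 1, 3 or 4, and 624, 151, 845 and 207 without KO AngII replicate 1, 2, 3 or 4. It was 206, 176 and 198 without KO saline replicate 2, 3 or 4, which enter through the shared spread. A group of 42 genes, Acan, Arntl, Npas2, Ciart, Hlf, Fcer1g, Fcgr3, Cd300ld, Lep and Gbp2b among them, was called in each of the 31 other settings that tested it.

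Vamp8 itself was read in every library. It stood at 55.8, 52.3, 60.9 and 54.2 CPM in the WT AngII libraries and at 26.7, 24.6, 26 and 14.1 CPM in the KO AngII libraries. The groups did not overlap, and transcript of the gene (ENSMUSG00000050732) was reduced in KO but not absent. The log2 fold change, KO over WT throughout, was −1.29 (SE 0.23, adjusted p = 0.00981). Which exons the allele lacks is not given, so reads outside a deleted part cannot be told apart from intact transcript. Under saline the difference was −0.61 (adjusted p = 0.147), and the difference between the infusions was −0.68 (interaction adjusted p = 0.444). Both values rested on KO saline replicate 1: without it they were −0.95 (adjusted p = 0.0315) and −0.36 (adjusted p = 0.692), and the AngII difference was −1.31 (adjusted p = 0.00143).

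Of the 3 called genes nearest to Vamp8 on its chromosome 2 fell, and the third, Rpl34-ps1, is a copy described with the other copies. Vamp5, a SNARE-like protein of muscle membranes next to Vamp8, stood at 15.0, 11.1, 17.7 and 17.4 CPM in WT and at 6.16, 7.87, 7.22 and 8.33 CPM in KO (log2 fold change −1.05, SE 0.18, adjusted p = 0.00676). Tmem150a, a membrane protein gene, averaged 24.1 ± 4.74 CPM in WT and 13 ± 1.98 CPM in KO (−0.89, SE 0.17, adjusted p = 0.0143). For both genes every KO library lay below every WT library, as in 4.8% of all tested genes. Within 1 Mb of Vamp8, 2 of 30 tested genes were called (6.67%), and within 20 Mb 6 of 227 (2.64%), beside 2.03% over all genes. By whole chromosome the share called ran from 0.915% on chromosome 10 to 3.77% on chromosome 17, with 3.03% on chromosome 1. Grouping of calls by position elsewhere was not tested.

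Among 14 tested SNAREs of the endosomal and lysosomal pathways only Vamp8 passed the test. Snap29, a partner of Vamp8 in autophagosome fusion, stood at 27.4 ± 3.03 CPM in WT and 27.3 ± 1.97 CPM in KO (SD, n = 4). Stx17, the autophagosomal partner, stood at 33.7 ± 3.42 and 37.4 ± 11.1 CPM. Vamp2, a SNARE of synaptic and other secretory vesicles, had a log2 fold change of 1.10 (adjusted p = 0.0598). KO replicate 4, the library high in neuronal markers, held Vamp2 at 308 CPM, far above the other KO AngII libraries. None of 25 autophagy genes passed, and their median log2 fold change was 0.09, beside 0.0385 over all genes. The autophagy genes with the highest level were Sqstm1, a cargo receptor (log2 fold change 0.27, adjusted p = 0.301), and Gabarap, a membrane conjugate of the LC3 family (−0.24, adjusted p = 0.558).

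Of 28 tested lysosomal genes 1 rose and 2 fell, beside 0.995% higher and 1.03% lower over all genes, with a median log2 fold change of −0.27. Atp6v1a, a catalytic subunit of the proton pump, stood at 117, 113, 110 and 105 CPM in WT and at 147, 140, 187 and 212 CPM in KO (0.62, SE 0.14, adjusted p = 0.0364). Hexa, a subunit of beta-hexosaminidase, averaged 147 ± 36.3 CPM in WT and 93.8 ± 8.54 CPM in KO (−0.65, adjusted p = 0.0385), and Gusb, beta-glucuronidase, 76.1 ± 18.6 and 46.5 ± 4.02 CPM (−0.71, adjusted p = 0.0396). In none of the 3 did the groups overlap. Over all tested genes 4.54% lay wholly higher and 4.8% wholly lower in KO. Without KO replicate 4 these genes were not called, at adjusted p-values of 0.0932, 0.0616 and 0.0568.

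Elastin and its cross-linking enzyme were lower in the KO aorta. Of 21 tested genes of the elastic fibre, the stretchable element of the aortic wall, 5 fell and 1 rose, beside 1.03% and 0.995% over all genes. The median log2 fold change was −0.77, beside 0.0385 over all genes. Eln, the elastin precursor, stood at 14400, 10100, 23300 and 21700 CPM in WT and at 2010, 4170, 4190 and 2710 CPM in KO. Every KO library lay below every WT library, which was also the case for 4.8% of all tested genes, and the log2 fold change was −2.41 (SE 0.40, adjusted p = 0.00614), a fitted level 5.32-fold lower. Lox, the oxidase that cross-links elastin and collagen, stood at 677, 488, 1470 and 1390 CPM in WT and at 145, 307, 335 and 212 CPM in KO (−2.01, SE 0.39, adjusted p = 0.0155). The lowest WT library of Lox, replicate 2, was again above the highest KO library, replicate 3. Under saline the median of the 21 genes was −0.77 as well, with 2 called lower and none higher. Eln had a log2 fold change of −1.86 under saline (adjusted p = 0.0232) and Lox of −1.22 (adjusted p = 0.0904).

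Microfibril genes made up the other falls. Fbn1, fibrillin-1, averaged 670 ± 223 CPM in WT and 278 ± 75.1 CPM in KO (log2 fold change −1.27, SE 0.30, adjusted p = 0.0432). Mfap5 and Mfap4, microfibril-associated proteins, had log2 fold changes of −1.22 (adjusted p = 0.0446) and −1.12 (adjusted p = 0.0453). Efemp1, fibulin-3, was the member that rose, from 17.5, 9.09, 12.8 and 14.5 CPM in WT to 27.1, 33.8, 29.3 and 38.7 CPM in KO (1.26, SE 0.20, adjusted p = 0.00498). Fbln5, fibulin-5, an elastin assembly protein, did not pass and averaged 743.6 and 526.9 CPM (−0.50, adjusted p = 0.424). Without KO replicate 4 Fbn1, Mfap5 and Mfap4 were no longer called, while Eln (adjusted p = 0.0151), Lox (0.0369) and Efemp1 (0.0127) were.

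Collagens, which give the wall its tensile strength, had lower levels in KO. All 20 tested had a negative log2 fold change, with a median of −0.997. Of the 20, 10 passed the test and none rose, beside 1.03% lower and 0.995% higher over all genes. In 13 of the 20 every KO library lay below every WT library, beside 4.8% of all tested genes. The summed level of the 20 genes ran from 20920 to 49460 CPM in WT and from 8209 to 13700 CPM in KO. Among fibrillar collagens, Col5a2, a regulator of fibril width, stood at 577, 494, 1200 and 1230 CPM in WT and at 188, 296, 308 and 323 CPM in KO (−1.65, SE 0.33, adjusted p = 0.0207). Col1a1, the main chain of type I collagen, stood at 4120, 3640, 6620 and 11200 CPM in WT and at 1020, 2170, 2190 and 2740 CPM in KO (−1.65, SE 0.41, adjusted p = 0.0499). For both genes WT replicates 3 and 4 were the highest, and the lowest WT library stayed above all 4 KO libraries. Col3a1, type III collagen, averaged 9180 ± 5310 CPM in WT and 2920 ± 1090 CPM in KO and missed the threshold (−1.65, adjusted p = 0.0547). Under saline the median of the 20 collagens was −1.17, and 9 were called lower and none higher.

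Basement membrane collagens were among the calls. Col4a5 averaged 484 ± 85.1 CPM in WT and 173 ± 64.8 CPM in KO (log2 fold change −1.48, SE 0.31, adjusted p = 0.0288). The paired chains Col4a1 and Col4a2, which assemble into one network, had log2 fold changes of −1.05 (adjusted p = 0.0351) and −1.0 (adjusted p = 0.04). Type VIII collagen, made by smooth muscle and endothelium, did not pass: Col8a1 averaged 98.46 CPM in WT and 73.26 CPM in KO (−0.43, adjusted p = 0.725). The collagen count rested on single libraries. It was 6, 0 and 0 without WT AngII replicate 1, 3 or 4, and 3, 1 and 2 without KO AngII replicate 1, 2 or 4. It was 2 to 6 without WT saline replicate 3 or 4 or KO saline replicate 2, 3 or 4. DESeq2 called 13, with 1230 calls over all genes. All 20 signs stayed negative without KO replicate 4, and 18 did without WT AngII replicate 4.

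**Figure D1:**
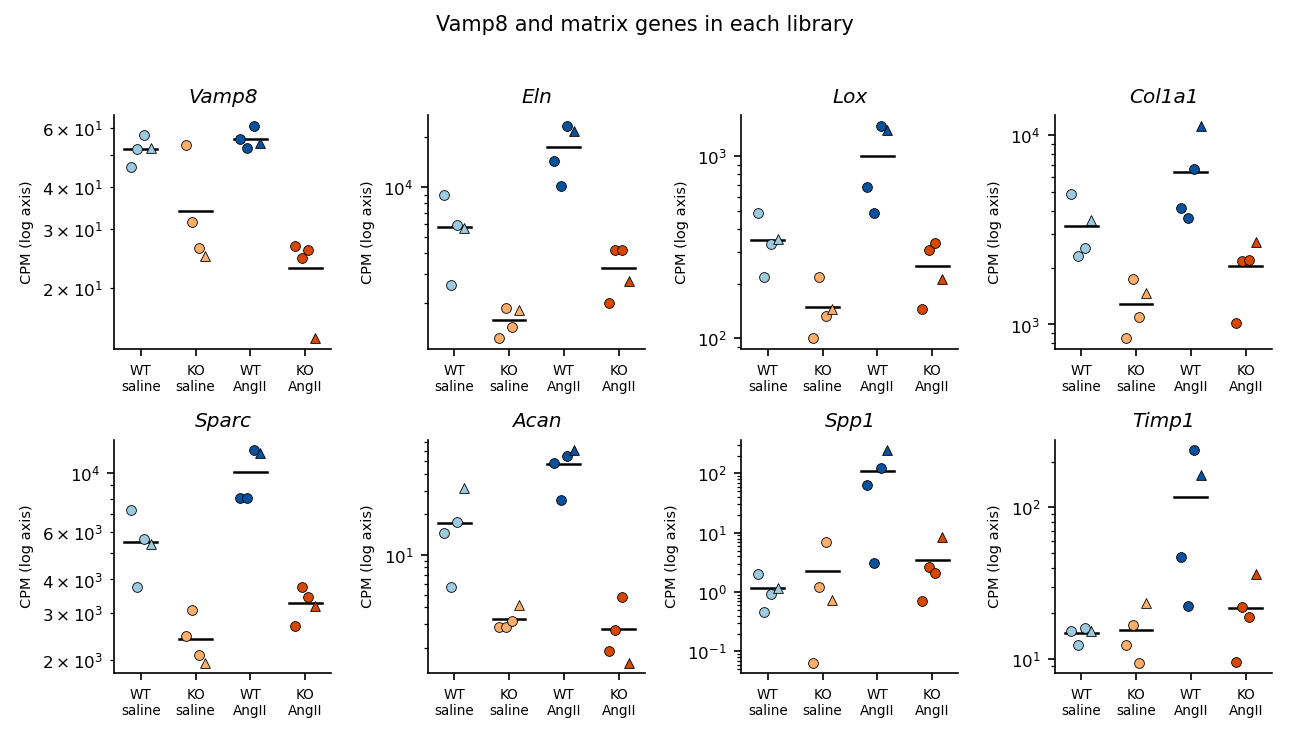
Level of Vamp8 and 7 matrix genes in each of the 16 libraries, in CPM on a log axis, by genotype and infusion; each point is a library, a triangle marks replicate 4 and the bar is the group mean. Under AngII the KO points of Vamp8, Eln, Lox, Col1a1, Sparc and Acan lie below all WT points, and those of Spp1 and Timp1 overlap with WT replicate 2.

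The collagen chaperone Serpinh1 fell. Also known as HSP47, it stood at 928, 769, 1380 and 1320 CPM in WT and at 280, 435, 454 and 494 CPM in KO (log2 fold change −1.40, SE 0.24, adjusted p = 0.00642). Under saline the log2 fold change was −1.71 (adjusted p = 0.00135). Under AngII every KO library lay below every WT library, as in 4.8% of all tested genes. Further calls of this kind, chosen after their values were seen and so given as description, were P3h1 and Plod2, which hydroxylate collagen (−1.02, adjusted p = 0.0399, and −1.27, adjusted p = 0.0361), Fkbp10, a procollagen folding factor (−1.06, adjusted p = 0.0483), and Bmp1, which trims procollagen (−1.26, adjusted p = 0.0322). Without KO replicate 4 none of these 4 was called, at adjusted p-values of 0.0631, 0.0591, 0.0754 and 0.0623, and Serpinh1 was (0.00733). Of 21 genes of the unfolded protein response, which adjusts the folding capacity of the endoplasmic reticulum, 3 fell and none rose. The shares over all genes were 1.03% and 0.995%. Pdia6, a disulfide isomerase, averaged 251 ± 65.8 CPM in WT and 151 ± 16.7 CPM in KO (−0.74, adjusted p = 0.0346). Dnajc3, a co-chaperone (−0.69, adjusted p = 0.0377), and Creld2, a secreted stress-response protein (−0.71, adjusted p = 0.0483), were the others. Without KO replicate 4 Dnajc3 (0.0715) and Creld2 (0.0688) were not called and Pdia6 was (0.0335). The count of 3 was 0 without WT AngII replicate 3 or 4, KO AngII replicate 2 or KO saline replicate 3, and it was 1 when replicate 1 of either AngII group was left out. Under saline 6 of the 21 were called lower and none higher, with a median log2 fold change of −0.42, beside −0.17 under AngII.

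Of 26 matricellular proteins and proteoglycans, 3 fell and none rose, beside 1.03% and 0.995% over all genes, and the median log2 fold change was −0.70. Acan, the cartilage proteoglycan aggrecan, stood at 48.4, 25.5, 55.3 and 60.6 CPM in WT and at 1.89, 2.70, 4.81 and 1.54 CPM in KO. The lowest WT library exceeded the highest KO library, and the log2 fold change of −4.11 (SE 0.49, adjusted p = 0.000303) is a fitted level 17.2-fold lower. Sparc, a collagen-binding protein, stood at 8070, 8060, 12100 and 11800 CPM in WT and at 2690, 3740, 3450 and 3200 CPM in KO (−1.61, SE 0.26, adjusted p = 0.00525). Postn, periostin, averaged 4307 CPM in WT and 2081 CPM in KO (−1.05, adjusted p = 0.126), and Fn1, fibronectin, 4064 and 2353 CPM (−0.79, adjusted p = 0.246). Under saline 5 of the 26 were called lower and none higher, with a median of −0.56. Acan had −2.41 there (adjusted p = 0.0151) and Sparc −1.20 (adjusted p = 0.0247).

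Spp1 and Timp1, both raised in remodelling arteries, were lower in KO in the test but not in every library. Spp1, the secreted phosphoprotein osteopontin, stood at 63.2, 3.07, 123 and 245 CPM in WT and at 0.70, 2.66, 2.13 and 8.56 CPM in KO (log2 fold change −4.94, SE 1.15, adjusted p = 0.0419). WT replicate 2 lay within the KO range. Timp1, an inhibitor of metalloproteinases, stood at 46.8, 22.4, 238 and 164 CPM in WT and at 9.58, 22, 18.8 and 36.4 CPM in KO (−2.44, SE 0.59, adjusted p = 0.0472), and WT replicate 2 again lay below the highest KO library. Both genes were low in the saline groups, Spp1 at 1.15 CPM in WT and 2.23 CPM in KO, Timp1 at 14.7 and 15.5 CPM. The difference between the infusions was not called for either (interaction adjusted p = 0.361 for Spp1 and 0.391 for Timp1).

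Of 11 tested calcification and chondrogenic genes 3 fell and none rose, beside 1.03% and 0.995% over all genes. Besides Acan these were Tnfrsf11b, the decoy receptor osteoprotegerin, at 48.8, 28.5, 131 and 111 CPM in WT and 23.5, 23.3, 32.4 and 17.2 CPM in KO (log2 fold change −1.73, SE 0.39, adjusted p = 0.0375), and Ctsk, the collagen-degrading protease cathepsin K. WT replicate 2 of Tnfrsf11b lay inside the KO range, and without KO replicate 4 its adjusted p was 0.077. Ctsk stood at 89.1, 61.2, 112 and 177 CPM in WT and at 27.1, 46.1, 45.7 and 44.2 CPM in KO, with no overlap (−1.43, SE 0.29, adjusted p = 0.0245). Of the 12 cathepsins tested, Ctsc, which activates granule proteases, was the other that fell, from 89.0 ± 29.3 to 46.3 ± 3.77 CPM (−0.94, adjusted p = 0.0207). None of 20 matrix proteases passed. The matrix proteases with the highest level were Adamts2, a procollagen proteinase (−1.18, adjusted p = 0.0523), and Adamts1, which cleaves proteoglycans (0.56, adjusted p = 0.699).

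**Figure D2:**
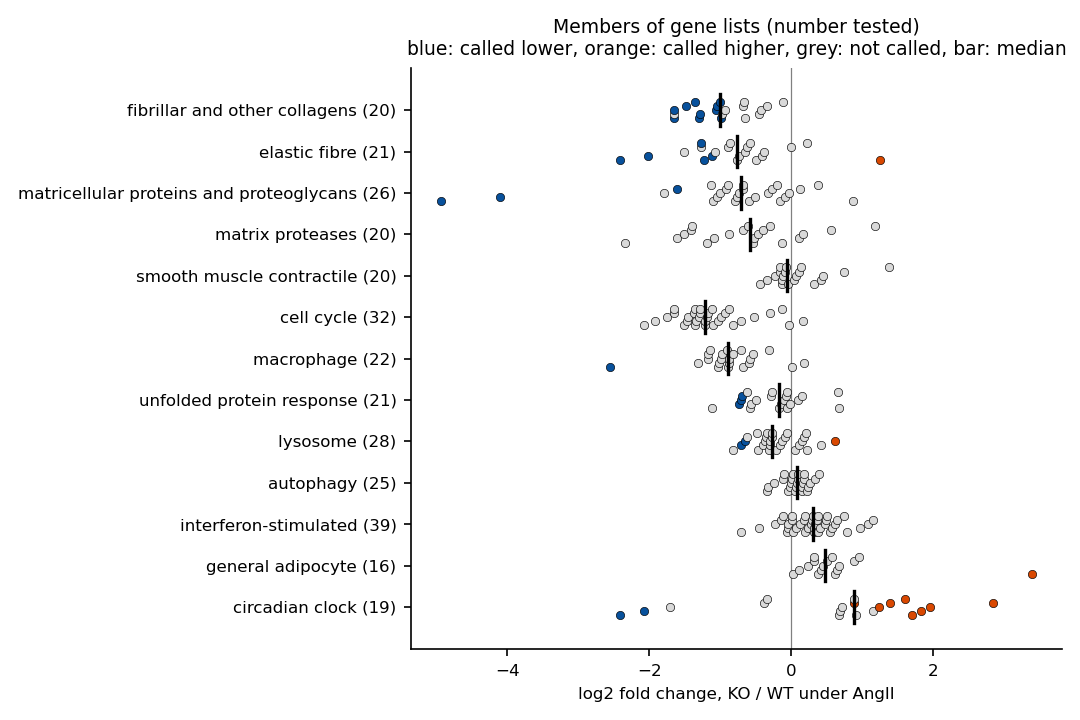
Log2 fold change, KO over WT under AngII, of each tested member of 13 gene lists; a bar marks the median, blue and orange points are members called lower and higher, grey points were not called. Collagens lie below 0 throughout (median −0.997), 31 of 32 cell cycle genes lie below 0 with none called, and clock genes fall on both sides.

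No contractile gene of smooth muscle passed, of 20 tested, and their median log2 fold change was −0.05. Acta2, smooth muscle actin, stood at 8180, 7450, 11900 and 7710 CPM in WT and at 7060, 9720, 10200 and 3250 CPM in KO, and the groups overlapped (log2 fold change −0.22, SE 0.37, adjusted p = 0.843). Its sign turned without KO replicate 4. Flna, filamin A, had a log2 fold change of 0.08 (adjusted p = 0.955). None of 15 genes of the renin-angiotensin system and its regulators passed. Agtr1a, the main AngII receptor of mouse vessels, stood at 6.66, 5.01, 3.74 and 4.82 CPM in WT and at 5.25, 7.52, 3.61 and 49.6 CPM in KO, where replicate 4 was the high one (1.70, adjusted p = 0.166, and −0.15 with neuronal and chromaffin markers as covariate). Ace, the converting enzyme, had a log2 fold change of −0.70 (adjusted p = 0.244), and Rgs5, a regulator of Gq signalling in mural cells, of −0.09 (adjusted p = 0.95).

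Cell cycle genes had a negative log2 fold change in 31 of 32 cases, with a median of −1.21, yet none passed the test. Mki67, the proliferation antigen Ki-67, stood at 19.9, 26.3, 41.1 and 47.0 CPM in WT and at 6.65, 11.4, 15.6 and 21.4 CPM in KO, so that the highest KO library lay just above the lowest WT library (−1.29, SE 0.38, adjusted p = 0.0822). Mcm6, a replicative helicase subunit, had a log2 fold change of −0.30 (adjusted p = 0.605). The call depended on the setting. Without KO replicate 4, 7 of the 32 were called lower, DESeq2 called 16 and the fit with neuronal and chromaffin markers as covariate called 15. Over all genes these settings made 207, 1230 and 202 calls in either direction, beside 324 in the main fit. Under saline the median of the same genes was 0.21.

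Among myeloid genes the calls included Fc receptors, which bind antibody on macrophages and mast cells. Fcer1g, the signalling chain shared by activating Fc receptors, stood at 12.9, 7.02, 24.7 and 30 CPM in WT and at 2.94, 2.36, 3.55 and 3.82 CPM in KO, with no overlap (log2 fold change −2.56, SE 0.41, adjusted p = 0.00525). Fcgr3, an activating IgG receptor, stood at 15.7, 10.9, 26 and 35.1 CPM in WT and at 4.90, 2.90, 6.34 and 3.94 CPM in KO (−2.28, SE 0.35, adjusted p = 0.00336). Fcgr2b, the inhibitory receptor, averaged 22.5 ± 10.7 and 6.93 ± 1.62 CPM (−1.70, adjusted p = 0.0208). Fcgr3 and Fcgr2b were chosen after their values were seen. In all 3 every KO library lay below every WT library, as in 4.8% of all tested genes. Under saline Fcer1g (adjusted p = 0.03) and Fcgr3 (0.0171) were called and Fcgr2b (0.126) was not. Fcer1g had a log2 fold change of −1.83 there, while the median of the 22 macrophage markers was −0.26. The position of the 3 genes relative to other called genes was not tested.

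Other myeloid genes fell alongside. Cd300ld, a receptor of the CD300 family on myeloid cells, stood at 7.07, 5.21, 11.7 and 12.8 CPM in WT and at 0.909, 1.38, 2.08 and 1.2 CPM in KO (log2 fold change −2.72, SE 0.37, adjusted p = 0.00124). Aoah, an acyloxyacyl hydrolase that inactivates lipopolysaccharide, averaged 2.82 ± 1.64 CPM in WT and 0.209 ± 0.145 CPM in KO (−3.74, SE 0.71, adjusted p = 0.0138). Ms4a14, of the MS4A membrane family, averaged 1.46 ± 0.944 and 0.226 ± 0.121 CPM (−2.65, SE 0.62, adjusted p = 0.0425). Of the 22 macrophage markers only Fcer1g was called, though 20 of the 22 were lower and the median was −0.89. Csf1r, the growth factor receptor of macrophages, averaged 74.0 ± 34.6 CPM in WT and 36.4 ± 6.24 CPM in KO (−1.03, adjusted p = 0.0676), and Cd68, a lysosomal marker of macrophages, 12.2 ± 6.13 and 6.55 ± 0.46 CPM (−0.90, adjusted p = 0.205). The summed level of the macrophage markers ran from 588.1 to 1486 CPM in WT and from 475.2 to 692.8 CPM in KO. In whole tissue fewer cells of a type and less RNA per cell cannot be told apart.

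Vcam1, an endothelial and smooth muscle receptor for leukocytes, stood at 144, 62.2, 137 and 204 CPM in WT and at 42.9, 70.1, 55.3 and 55.4 CPM in KO, and missed the threshold (log2 fold change −1.29, SE 0.32, adjusted p = 0.0514). KO replicate 2 lay above WT replicate 2. Of the 13 leukocyte adhesion genes tested none was called.

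The circadian clock is a feedback loop in which ARNTL (BMAL1) paired with CLOCK or NPAS2 binds E-boxes and drives its own repressors, the PER and CRY proteins and the REV-ERB receptors, together with output factors such as DBP, TEF and HLF. REV-ERB and ROR receptors in turn act on Arntl through ROR elements. In the KO aorta the activator genes Arntl and Npas2 fell, and 8 repressor or output genes rose, of 19 tested. Over all genes 1.03% fell and 0.995% rose. No source used here gives the time of day at which the aortae were taken.

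Promoter windows of 4 of these genes are shown because they hold the letters of the loop's own elements, 3 from genes that rose and 1 from a gene that fell. The windows span 250 bases before to 50 after a RefSeq start (build GRCm38.p6), 5′ to 3′ on the gene's strand, with capitals marking the E-box CACGTG or the ROR element core TAGGTCA. Ciart lies at chr3:95882179-95882478 on the minus strand, Tef at chr15:81811164-81811463 on the plus strand, Bhlhe41 at chr6:145865371-145865670 on the minus strand and Arntl at chr7:113207261-113207560 on the plus strand.
Ciart: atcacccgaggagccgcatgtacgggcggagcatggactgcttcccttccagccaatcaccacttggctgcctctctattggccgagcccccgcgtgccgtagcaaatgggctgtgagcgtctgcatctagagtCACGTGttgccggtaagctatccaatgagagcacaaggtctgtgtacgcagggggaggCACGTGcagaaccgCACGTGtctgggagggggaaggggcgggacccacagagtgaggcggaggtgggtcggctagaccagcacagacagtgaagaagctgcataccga
Tef: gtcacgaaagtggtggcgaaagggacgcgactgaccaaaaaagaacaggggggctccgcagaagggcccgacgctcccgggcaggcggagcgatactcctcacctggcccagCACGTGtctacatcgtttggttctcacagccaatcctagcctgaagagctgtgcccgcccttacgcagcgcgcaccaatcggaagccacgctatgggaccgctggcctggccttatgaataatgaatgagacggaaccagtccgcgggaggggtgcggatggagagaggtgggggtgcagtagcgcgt
Bhlhe41: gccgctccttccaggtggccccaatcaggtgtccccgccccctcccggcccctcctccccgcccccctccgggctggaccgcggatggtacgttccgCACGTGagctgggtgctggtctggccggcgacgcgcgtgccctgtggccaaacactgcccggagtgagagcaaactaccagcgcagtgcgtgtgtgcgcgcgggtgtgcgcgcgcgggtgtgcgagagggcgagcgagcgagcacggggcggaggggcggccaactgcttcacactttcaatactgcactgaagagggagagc
Arntl: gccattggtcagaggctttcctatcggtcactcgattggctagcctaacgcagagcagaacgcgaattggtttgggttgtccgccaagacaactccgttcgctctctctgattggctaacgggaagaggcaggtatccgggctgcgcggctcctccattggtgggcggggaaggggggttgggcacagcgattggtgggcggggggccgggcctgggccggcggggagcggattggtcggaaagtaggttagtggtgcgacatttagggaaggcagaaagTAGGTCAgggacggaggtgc
The Ciart window holds 3 E-boxes and those of Tef and Bhlhe41 hold 1 each. Searched on both strands (the E-box is its own reverse complement, and TAGGTCA reads TGACCTA on the other), an E-box was in 3 of the 7 windowed genes that rose, in neither of the 2 that fell and in 2 of the 7 not called, Cry1 and Per1. Over all genes with RefSeq windows 8.09% have an E-box in a window and 2.97% the ROR core (7.15% and 2.61% of single windows). The ROR core was in Arntl and in Nfil3, and windows were found for 16 of the 19 clock genes. A match describes the letters of the window and shows no binding.

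Arntl, the activator, stood at 27.8, 13.6, 18.8 and 23.4 CPM in WT and at 3.22, 3.59, 7.27 and 5.65 CPM in KO (log2 fold change −2.08, SE 0.32, adjusted p = 0.00377). Npas2, its alternative partner, stood at 27.3, 13.2, 26.1 and 22.7 CPM in WT and at 4.34, 2.41, 7.33 and 2.68 CPM in KO (−2.41, SE 0.44, adjusted p = 0.0112). For both genes every KO library lay below every WT library, which was the case for 4.8% of all tested genes. Clock, the main partner, averaged 87.9 ± 9.02 CPM in WT and 67.7 ± 12.2 CPM in KO, and was not called (−0.38, adjusted p = 0.16). Nfil3, a repressor of D-box genes that rises and falls with Arntl, averaged 27.8 ± 14.8 and 8.49 ± 7.17 CPM without overlap (−1.70, adjusted p = 0.087).

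Repressor and output genes moved the other way. Ciart, a repressor of the loop, stood at 0.481, 1.14, 0.802 and 0.297 CPM in WT and at 6.86, 4.97, 3.72 and 4.22 CPM in KO (log2 fold change 2.85, SE 0.44, adjusted p = 0.00336). Dbp, an output factor, stood at 12.8, 29.3, 32.6 and 21.2 CPM in WT and at 132, 84.3, 78.5 and 80.4 CPM in KO (1.97, SE 0.48, adjusted p = 0.0483). Its relatives Hlf and Tef rose by 1.83 (SE 0.31, adjusted p = 0.00642) and 1.39 (SE 0.23, adjusted p = 0.00646), Hlf from 16 ± 4.61 to 57.0 ± 16.5 CPM and Tef from 87.3 ± 19.5 to 229 ± 31.8 CPM. In all 4 genes every KO library lay above every WT library, which was the case for 4.54% of all tested genes.

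The period genes Per2 and Per3 also rose. Per2 stood at 9.82, 12.4, 8.75 and 9.10 CPM in WT and at 27.1, 41.3, 47.5 and 15.2 CPM in KO (log2 fold change 1.71, SE 0.31, adjusted p = 0.0105). Per3 averaged 13.2 ± 2.91 CPM in WT and 40.1 ± 6.95 CPM in KO (1.6, SE 0.3, adjusted p = 0.0124), while Per1, which also responds to acute stimuli, overlapped between the groups (0.89, adjusted p = 0.339). Bhlhe41, an E-box repressor (1.23, adjusted p = 0.0393), and Nr1d2, REV-ERB beta (0.89, adjusted p = 0.0412), completed the 8. Without KO replicate 4 the list held 7 genes higher and 2 lower, with Dbp at an adjusted p of 0.0688. It held 5, 3 and 4 higher without WT AngII replicate 1, 3 or 4 and 5 higher without KO AngII replicate 2 or KO saline replicate 2, 3 or 4, with 2 lower each time. Arntl, Npas2, Ciart and Hlf were called in all 31 other settings. Arntl, Npas2, Ciart, Dbp, Tef, Bhlhe41 and Nr1d2 were also called in the same direction in the saline groups, which share no library with the AngII groups. Per2 was not, at a log2 fold change of 0.10 under saline (adjusted p = 0.865), and its interaction of 1.61 was not called (adjusted p = 0.361).

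**Figure D3:**
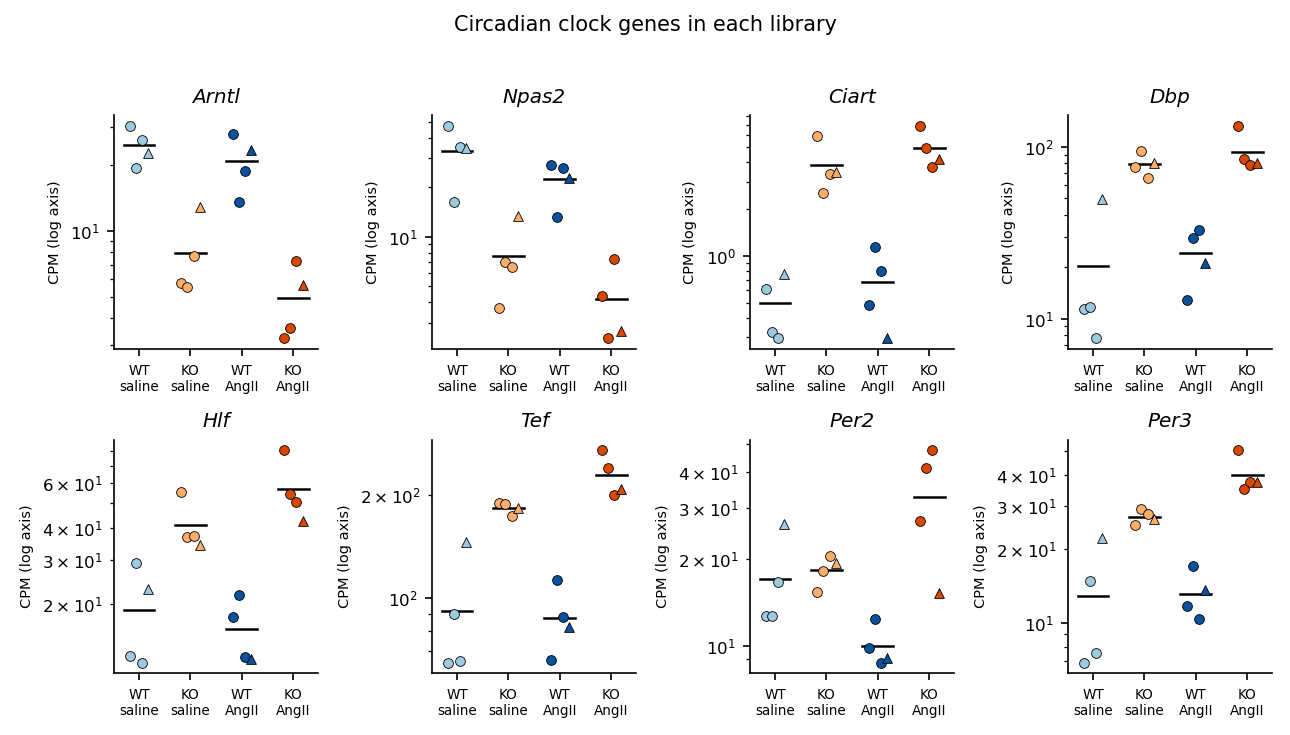
Level of 8 circadian clock genes in each of the 16 libraries, in CPM on a log axis, by genotype and infusion; each point is a library, a triangle marks replicate 4 and the bar is the group mean. Under AngII Arntl and Npas2 lie below the WT points in all 4 KO libraries, and the other 6 genes lie above them.

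None of 39 interferon-stimulated genes passed, their median log2 fold change was 0.31, and the members with the highest level, Ifi27l2a and Ifi27, had log2 fold changes of 0.48 (adjusted p = 0.604) and −0.11 (adjusted p = 0.955). Outside that list Gbp2b, a guanylate-binding protein, was nearly silent in WT at 0.275, 0.468, 0 and 0 CPM and stood at 31.6, 40, 30.9 and 49.2 CPM in KO (adjusted p = 4.56e-06). The KO reads were 452, 814, 565 and 863, against 4, 7, 0 and 0 in WT. The same gene was called under saline (adjusted p = 2.22e-06), at mean levels of 0.112 CPM in WT and 37.8 CPM in KO.

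The Ifi200 cluster of DNA-sensing proteins had 12 tested members, of which 1 rose and 1 fell, beside 0.995% and 1.03% over all genes. Ifi202b had 1, 0, 0 and 0 reads in WT and 61, 134, 166 and 155 reads in KO (adjusted p = 1.65e-06). Ifi213 had 7, 55, 20 and 6 reads in WT and 0, 0, 1 and 0 in KO (adjusted p = 0.0123). No fold is given for either, because one group is at the level of single reads, and near-identical members of the cluster can share reads, so both are uncertain. Igsf9, an adhesion molecule gene in the same chromosome region, stood at 44.2, 20.4, 32.8 and 28.6 CPM in WT and at 3.85, 0.836, 3.61 and 1.77 CPM in KO (log2 fold change −3.66, SE 0.48, adjusted p = 0.000911). In the Trim cluster, whose members resemble each other closely, Trim34b averaged 0.325 ± 0.115 CPM in WT and 2.35 ± 1.09 CPM in KO (2.83, adjusted p = 0.00614) and Trim6 0.823 ± 0.173 and 2.78 ± 1.12 CPM (1.75, adjusted p = 0.0479), 2 of 9 tested. Of the 9, 5 had a negative log2 fold change, down to −3.33. In 3 every KO library lay below every WT library and in 3 above, beside 4.8% and 4.54% of all tested genes. None of the 9 was called lower, and the 2 higher calls stand beside 0.995% over all genes. Under saline 4 were called lower and 2 higher. The mean log2 CPM of the cluster was 0.79, 1.04 and 0.86 in KO AngII replicates 1 to 3. It was 2.36 in KO AngII replicate 4 and 2.27 to 2.60 in WT AngII.

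Leptin was the adipocyte gene that changed. Lep stood at 4.05, 4.95, 2.41 and 3.03 CPM in WT and at 14.8, 70, 38.1 and 30.1 CPM in KO (log2 fold change 3.41, SE 0.44, adjusted p = 0.000648). Every KO library exceeded every WT library, as in 4.54% of all tested genes. All 16 general adipocyte genes had a positive log2 fold change, with a median of 0.48, and the other 15 were not called. The summed adipocyte level ran from 9921 to 28780 CPM in WT and from 19350 to 34310 CPM in KO, and its part in the leptin result was not tested. The fit with adipocyte markers as covariate, Lep among them, kept all 324 calls, that of Lep included. It therefore cannot single out Lep. Under saline the log2 fold change was 0.31 (adjusted p = 0.659), and the interaction of 3.10 was not called (adjusted p = 0.185). Fdft1, squalene synthase, rose from 42.7 ± 19.8 to 110 ± 39.5 CPM (1.36, adjusted p = 0.0483, 0.128 without KO replicate 4), and was the one of 19 cholesterol synthesis genes called, although all 19 were higher in KO (median 0.56). Gclc, which makes the precursor of glutathione, averaged 24.0 ± 1.36 CPM in WT and 37.5 ± 10.1 CPM in KO (0.65, adjusted p = 0.0495, 0.0942 without KO replicate 4), 1 of 23 oxidative stress genes.

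Genes of neurons had some of the largest fitted rises, and KO replicates 4 and 2 held most of their reads. Sult4a1, a sulfotransferase of neurons, stood at 0, 0, 0.0668 and 0.0595 CPM in WT and at 0.35, 12.8, 0.984 and 260 CPM in KO (adjusted p = 0.0446). Prph, the peripheral neuron filament peripherin, stood at 0, 0.468, 1.00 and 0.178 CPM in WT and at 1.26, 30.3, 1.31 and 662 CPM in KO (adjusted p = 0.0495). The muscarinic receptor Chrm2, the granule proteins Scg5, Scg3 and Chgb, the synaptic vesicle protein Sv2c, the scaffold Mapk8ip2 and the microtubule regulator Stmn3 had the same shape, with 40.6, 68.8, 73.5, 156, 182, 126 and 245 CPM in KO replicate 4. Of the 159 genes called higher, 45 had over 50% of their KO level in that library. Without it none of these 9 genes was called, Prph having an adjusted p of 0.156 and Sult4a1 of 0.106. Th, which makes the precursor of catecholamines, had 0 reads in KO replicates 1 and 3 and stood at 24.0 and 481 CPM in replicates 2 and 4. Mbp and Pmp22, myelin proteins of Schwann cells, had log2 fold changes of 2.63 (adjusted p = 0.0949) and 0.17 (adjusted p = 0.838), and none of 12 Schwann cell genes passed.

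Pik3c2g, a class II phosphoinositide kinase, had 0 reads in all 4 WT AngII libraries and 36, 23, 24 and 10 reads in KO (adjusted p = 0.0162). Zfp429, a zinc finger gene, averaged 2.77 ± 0.116 CPM in WT and 0.417 ± 0.335 CPM in KO (log2 fold change −2.70, adjusted p = 0.00876). Duxbl1, a double homeobox gene with close relatives, averaged 3.11 ± 0.35 and 0.538 ± 0.264 CPM (−2.53, adjusted p = 0.0108), and Gm15446, a predicted zinc finger gene, 4.19 ± 0.504 and 0.181 ± 0.12 CPM (−4.52, adjusted p = 2.72e-05). Such gene families hold close relatives, so reads may be split between them, and the 3 values are uncertain.

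Copies of genes gave some of the lowest p-values, and their values are uncertain, since reads that match a gene and its near-identical copy can be assigned to either. Of 576 tested processed pseudogenes of the reference 22 were called higher (3.82%) and 2 lower (0.347%), beside 0.995% and 1.03% of all tested genes. Rpl34, a ribosomal protein, stood at 144, 145, 172 and 196 CPM in WT and at 1.26, 0.983, 2.24 and 0.685 CPM in KO, while its copy Rpl34-ps1 stood at 8.79, 13.8, 17.9 and 12.5 CPM in WT and at 137, 152, 145 and 138 CPM in KO. The sum of gene and copy was 177 ± 26.5 CPM in WT and 144 ± 6.99 CPM in KO. Rnps1, a splicing regulator, averaged 40.8 ± 2.96 CPM in WT and 12.1 ± 1.61 CPM in KO (−1.76, SE 0.13, adjusted p = 1.28e-06), and its copy went from 0.22 to 18.5 CPM, so that the sum was 0.745 of the WT level. For Rps13, the gene went from 107 to 66.8 CPM and the 4 copies together from 10 to 48.1 CPM, and the sum ratio was 0.983. For Pcna the sum ratio was 0.996.

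Further copies, pseudogenes and non-coding genes had low p-values. Rps13-ps1 averaged 2.07 ± 0.21 CPM in WT and 47.5 ± 2.18 CPM in KO (adjusted p = 4.49e-09), and Rps13-ps2 went the other way, from 7.80 ± 1.77 to 0.323 ± 0.0939 CPM (adjusted p = 5.59e-05). Atp6v0c-ps2 (1.00 ± 0.316 to 45.5 ± 23.4 CPM), Gm6969 (1.39 ± 0.704 to 38.2 ± 10.3 CPM) and Gm7993 (0.222 ± 0.154 to 15.4 ± 1.58 CPM) were higher in KO, each at an adjusted p of 7.04e-07. Gpr137b-ps (13 ± 2.34 to 1.81 ± 0.43 CPM, adjusted p = 0.000422) and Gm16046 (0.90 ± 0.0593 to 0.0137 ± 0.0273 CPM, adjusted p = 0.000134) were lower; Gm16046 is a long non-coding RNA with no named copy. Gas5, a host gene of small nucleolar RNAs, stood at 36.6, 36.2, 44.4 and 50.5 CPM in WT and at 1.12, 1.67, 2.30 and 1.65 CPM in KO (log2 fold change −4.62, SE 0.26, adjusted p = 1.35e-07), and was the one of 14 tested host genes called. No named copy of Gas5 was summed with it. When named copies were summed with their genes, 309 of the 324 called genes were still tested, 259 of these kept their call and no others were called.

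**Figure D4:**
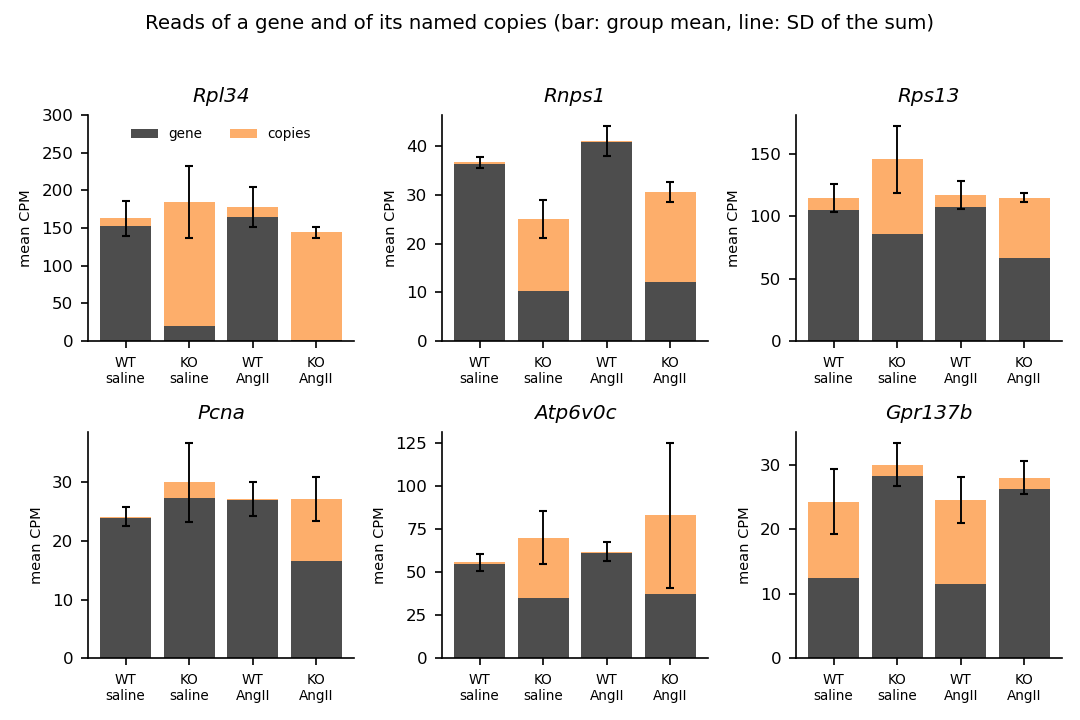
Mean CPM of 6 genes (dark) and of their named copies (orange) by genotype and infusion, with the SD of the sum over 4 libraries. In the KO groups part or nearly all of the reads sit on the copies for Rpl34, Rnps1, Rps13, Pcna and Atp6v0c, and for Gpr137b the copy holds about as many reads as the gene in WT and few in KO.

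Most of the genotype difference under AngII had the same direction under saline, in libraries not shared with it. Under saline 481 genes (3.01%) were called, 133 of them also under AngII and all 133 in the same direction, which is 41% of the AngII calls and 27.7% of the saline calls. Without KO saline replicate 1, the library with Vamp8 at the WT level, 197 genes were called under saline and 96 under both infusions. Of the 324 genes called under AngII, 299 (92.3%) had the same sign under saline, against 60.4% of all tested genes. The saline libraries also differed by genotype in make-up. Mitochondrial reads were 27.0 to 32.8% of the total in KO saline and 8.33 to 17.7% in WT saline, without overlap. For smooth muscle contractile genes the saline median was −0.81, beside −0.05 under AngII, and none was called. The part of this make-up in the saline differences, those of matrix genes included, was not tested. The interaction, which tests whether the genotype difference changed with infusion, was called for 3 genes (0.0188%), at an unadjusted p under 0.05 for 1793 genes (11.2%), and by DESeq2 for 104. None of the 324 was among the 3, and 97 of them had an unadjusted interaction p under 0.05. The 3 were copies of other genes, Rps3a2, Rps3a3 and Tpm3-rs7, with log2 fold changes of −0.15, −0.13 and −0.14 under AngII against 5.01, 6.18 and 2.6 under saline.

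**Figure D5:**
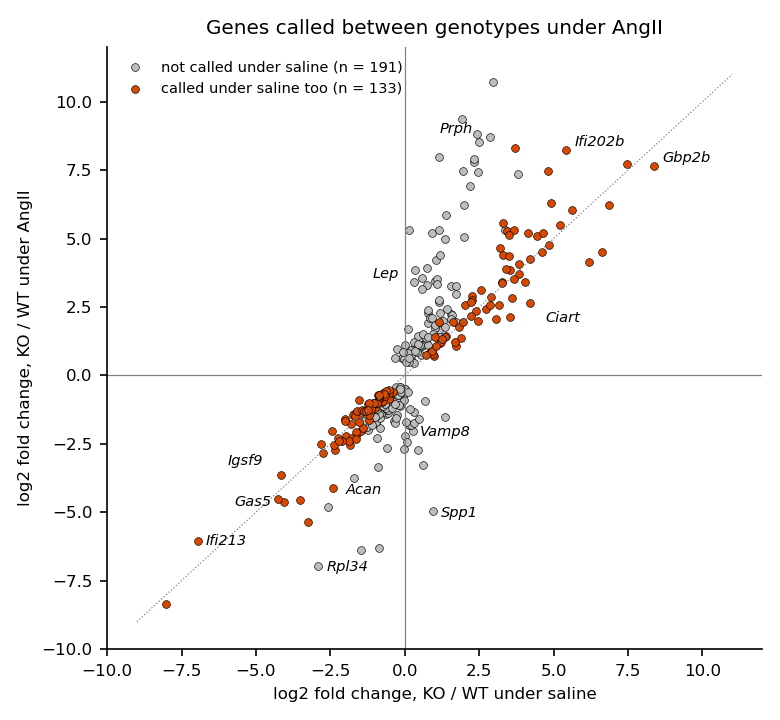
Log2 fold change, KO over WT, under AngII (vertical) against saline (horizontal) for the 324 genes called under AngII; orange points (133) were also called under saline, grey points (191) were not, and the dotted line marks equal change. Igsf9, Gas5, Ifi213 and Gbp2b lie near the line, while Prph, Lep and Spp1 lie away from it, with no interaction call; fitted values of genes with almost no reads in one group depend on the prior count.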

How the data were processed

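The deposited file holds raw counts of reads per gene in whole numbers, with no normalization by the authors. The submitters' processing notes name the aligner HISAT2 (2.0.5), the counter featureCounts (1.5.0-p3), DESeq2 (1.20.0) and the genome build GRCm39. No source used here gives the annotation, the strand setting or the handling of reads that map to several places. The reference here was GRCm38, used for gene type and neighbours (28378 of 29695 identifiers matched) and, as RefSeq promoter windows of GRCm38.p6, for the promoter sequences, their coordinates and the motif counts. No read or level was placed on these coordinates.

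Group and replicate came from the sample titles. edgeR's default expression filter kept 15984 genes and removed 13711. The counts of all 16 libraries were scaled by trimmed mean of M values and tested with edgeR's quasi-likelihood method (edgeR 4.0.16, R 4.3.3), using 4 group means, which leaves 12 residual degrees of freedom. Calls were two-sided, at an adjusted p (Benjamini-Hochberg, all genes tested) under 0.05. The biological coefficient of variation was 35.3%. Levels are CPM with SD over n = 4. The fit was tested on simulated counts with the trended spread of these data. Of 100 genes changed 2-fold in KO AngII 36% were called, and of 100 changed 4-fold 88%. Among the 15727 genes tested there were 7 false calls. The simulation drew genes independently and held no library like KO AngII replicate 4, so these values need not hold for the real counts. Alternatives were other scalings and filters, DESeq2 1.42.0, limma voom (limma 3.58.1), marker covariates and leaving out each of the 16 libraries. The summing of copies and the omission of both libraries that stand apart were chosen after seeing the data.

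Genes were named by a rule: Vamp8, the 10 largest rises and 10 largest falls among called coding genes without copies whose groups did not overlap, the 5 lowest p in each direction among the others, up to 4 called members of each gene list described (or its 2 most abundant where none was called), and the 3 called genes nearest Vamp8. Spp1, Timp1, Vcam1 and Agtr1a were read as well, and Nnt was not among the genes tested. Genes named beyond the rule were chosen after their values were seen. The comparison, the rule and the lists were chosen with earlier results of these data known.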

Additional observations from a re-analysis of the deposited data

Results flagged for a closer look

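Within groups of 4 libraries, 32 of 277 tested sets of levels of the named genes had a highest or lowest library flagged as standing apart. Its gap to the nearest other was a larger share of the range than Dixon's 95% critical value allows. Chance flags about 5% of independent, normally spread sets. The named genes were chosen partly for large differences and the neural ones move together, so the 32 cannot be set against that 5%. In 19 of the 32 the flagged library was KO AngII replicate 4. It was far above the other KO libraries in the neural genes Prph (662 CPM), Th (481), Vamp2 (308), Sult4a1 (260), Stmn3 (245), Sv2c (182), Chgb (156), Mapk8ip2 (126), Scg3 (73.5), Scg5 (68.8) and Chrm2 (40.6). It was also the highest in Ifi27l2a (310 CPM), Atp6v0c-ps2 (80.5), Atp6v0c (66.1), Gclc (52.6) and Agtr1a (49.6), and the lowest in B2m (678 CPM), Nr1d2 (98.1) and Vamp8 (14.1).

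Other libraries stood away from their group in single genes. KO AngII replicate 1 was the highest in Dbp (132 CPM), Per3 (50.4) and Snap29 (30.3) and the lowest in Ppic (50.4) and Ctsk (27.1), and KO AngII replicate 3 was the highest in Bmp1 (120). WT AngII replicate 3 was the highest in Acta2 (11900 CPM), and WT AngII replicate 4 was the highest in Nfil3 (50) and the lowest in Stmn3 (0.119). In 4 sets the gap is that of 1 library with a read against 3 with none: Chrm2 in WT AngII replicate 3 (0.0668 CPM), Ifi202b in WT AngII replicate 1 (0.0687) and Ifi213 and Gm16046 in KO AngII replicate 3 (0.0547 each).

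The genotype difference itself differed between the infusions, by the interaction test of edgeR's quasi-likelihood fit, in 3 genes. On the log2 scale the difference under AngII minus that under saline was −5.16 in Rps3a2, −6.32 in Rps3a3 and −2.75 in Tpm3-rs7. All 3 are copies of other genes by name, and their values are uncertain.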

How the results depend on the processing

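No call reversed its sign in any of the 31 other settings, and 92 of the 324 genes were called in all 16 fits that left out 1 library. The count of 324 (159 higher, 165 lower) became 1230 (718, 512) with DESeq2, 672 (363, 309) with adipocyte markers as covariate, 580 (250, 330) with limma voom, 202 (78 higher) with neuronal and chromaffin markers as covariate, 102 (52, 50) from the 8 AngII libraries alone and 78 (45, 33) against a fold of 1.5. Among protein-coding genes read in both genotypes 90 were higher. Leaving out 1 library gave 100 to 845 calls, 52 to 561 higher and 48 to 284 lower. The 481 saline calls became 1362 with DESeq2, 3197 with voom, 230 with the adipocyte covariate, 76 at a fold of 1.5 and 105 to 1744 with 1 library out. The 133 genes called under both infusions became 302, 293, 82 and 43 with DESeq2, voom, protein-coding genes and a fold of 1.5, and 62 to 204 with 1 library out. The 3 interaction calls became 104, 173, 6 and 1 with DESeq2, voom, the neuronal covariate and protein-coding genes, and 2 to 12 with 1 library out. Vamp8 kept −1.29 at a fold of 1.5 but lost its call, and ran from −1.37 to −1.13 with 1 library out. The causes were not tested.

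With the replicate number as a block, 166 genes were called (77 higher, 89 lower), 88 under both infusions, and Snap29 turned to 0.000854. Same-numbered libraries correlated at 0.24, −0.0639, 0.0362 and 0.104, beside −0.233 to 0.216 for libraries with different numbers. These few values cannot decide whether the numbers stand for pairs or a shared batch.

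The genes that changed sign were not called. With voom, Acta2 stood at 0.0509, Rgs5 at 0.314 and Tpm3-rs7 at 0.0722. With the neuronal covariate, Acta2 was 0.0228, Agtr1a −0.152, Ifi27 0.291, Pdk4 0.0157, Pmp22 −0.355, Snap29 0.0469 and Ucp1 0.303. Without both libraries that stand apart, Acta2 was 0.0266, Pmp22 −0.201, Rgs5 0.0945 and Snap29 0.0105, with 257 calls in all. Atp6v0c turned to 0.424 when its copy was added to it. With 1 library out, Acta2 ran from −0.422 to 0.00412, Adamts1 from −0.0233 to 1.07, Cxcl12 from −0.199 to 0.0101, Flna from −0.0745 to 0.285, Ifi27 from −0.288 to 0.0809, mt-Cytb from −0.0816 to 0.479, Pmp22 from −0.221 to 0.31, Rgs5 from −0.471 to 0.0703, Rps3a2 from −0.293 to 0.0104, Rps3a3 from −0.321 to 0.121, Snap29 from −0.07 to 0.0423 and Stx17 from −0.0698 to 0.245. The 4 libraries a group and the coefficient of variation of 35.3% limit which differences could be called.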

Other observations

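Further genes were called in each of the 31 other settings that tested them and belong to none of the groups above; they were chosen after their values were seen. Slc22a3, an organic cation transporter, stood under AngII at 29.8, 29.9, 19.6 and 16.9 CPM in WT and at 201, 153, 131 and 85.4 CPM in KO, with no overlap (log2 fold change 2.57, adjusted p = 0.00462). Wdfy1, an adaptor protein of endosomes, stood at 13.7, 16.4, 16.6 and 21.5 CPM in WT and at 54.3, 77.5, 81.3 and 52.6 CPM in KO (1.96, adjusted p = 2.72e-05). Ero1b, an oxidase of the endoplasmic reticulum, averaged 10.1 ± 0.887 CPM in WT and 2.44 ± 0.227 CPM in KO (−2.04, adjusted p = 0.00016), Ppic, the prolyl isomerase cyclophilin C, 192 ± 72.8 and 60 ± 6.45 CPM (−1.67, adjusted p = 0.00269), and Plac9, a small secreted protein, 316 ± 78.5 and 77.9 ± 17.7 CPM (−2.02, adjusted p = 0.000422). Igha, the constant chain of immunoglobulin A, averaged 0.0826 ± 0.0657 CPM in WT and 3.04 ± 2.11 CPM in KO (adjusted p = 0.00168).

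Several groups of genes held no call between the genotypes under AngII. They include 26 chemokine and cytokine genes, where Csf1 had a log2 fold change of −0.21 (adjusted p = 0.66) and Cxcl12 of −0.09 (adjusted p = 0.852), 20 endothelial genes (median 0.43), where Pecam1 and Vwf had 0.44 (adjusted p = 0.506) and 0.70 (adjusted p = 0.617), and 20 genes of MHC class I (median 0.34), where H2-D1 and B2m had 0.58 (adjusted p = 0.13) and 0.30 (adjusted p = 0.447). None of 20 genes of the TGF-beta pathway, 16 complement genes, 21 immediate early genes or 18 T, B and NK cell genes passed either. Of 16 heat shock protein genes 14 were higher in KO without a call (median 0.40), the chaperones Hsp90ab1 at 0.52 (adjusted p = 0.127) and Hspa8 at 0.46 (adjusted p = 0.572). Of 12 brown adipocyte genes 9 were lower without a call, Ucp1, the uncoupling protein of brown fat, at −0.54 (adjusted p = 0.84) and Pdk4, a kinase that limits glucose oxidation, at −0.63 (adjusted p = 0.765). All 13 protein genes of the mitochondrial genome were higher in KO without a call (median 0.48), mt-Co1 at 0.44 (adjusted p = 0.659) and mt-Cytb at 0.29 (adjusted p = 0.805). DESeq2 called 1230 genes against 324, so an absent call in these groups does not show equal levels.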
